A study of Arabidopsis thaliana with 24 samples.

Results

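Transcript levels of 5 Arabidopsis genes tied to the circadian clock, to cold and to growth in light and shade were followed across 24 ATH1 arrays: GI (AT1G22770), COR27 (AT5G42900), COR15A (AT2G42540), IAA29 (AT4G32280) and the locus AT3G44450. They were chosen by measured values: their signals differed between npr1-3 and Col-0 plants in mock or between replicate numbers within a group. Those contrasts are therefore described here without a test. Mock arrays at 48 h also enter the tests of each treatment against mock at that time, between harvests and of changes with time. Such tests share values with the choice. The choice by replicate number also drew on arrays of other groups, and so on the spread that enters every test. No p-value of the 5 genes is therefore independent of the choice, including those between npr1-3 and Col-0 with DCA. Each gene had 1 probe set in the annotation, 5 of 22746 probe sets other than controls, and all 5 were among the 13648 that passed the filter on low signals and were tested.

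The RNA came from whole aerial tissue of seedlings that were 2 weeks old at treatment and grew on soil with 14 h of light a day and 10 h of dark. The npr1-3 groups, from a mutant line of NPR1, a coactivator of salicylic acid responses, were 100 µM DCA (3,5-dichloroanthranilic acid) and mock at 48 h. The Col-0 groups, from the wild-type accession, were 100 µM DCA, 100 µM INA (2,6-dichloroisonicotinic acid) and mock at 48 h, and the same treatments at 6 d. Mock spray held 0.002% DMSO in water, and the DCA and INA samples are listed with the same percentage of DMSO. Each of the 8 groups had 3 biological replicates, per the labels. The mutant was represented by a single allele, npr1-3, and the probe set of NPR1 itself was not analysed here. No source used here states the hour of the day at harvest.

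GI is a large plant protein that acts in the circadian clock and in the day-length control of flowering, and its transcript cycles with a peak late in the light period. COR27 is a nuclear protein whose transcript responds to cold and to the clock, COR15A is a chloroplast protein that protects membranes on freezing and is a classic target of the CBF cold-response factors, and IAA29 is an Aux/IAA repressor of auxin signalling whose transcript rises in shade and darkness. No role is given for AT3G44450, which the supplied gene table lists by its locus alone.

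The arrays had trimmed mean signals of 500.05 to 500.07 after the authors' scaling, and their median signals ran from 115.6 to 148.9. Leaf markers were high on every array: LHCB4.2, a light-harvesting antenna protein, had 15767 to 47580 and RCA, the Rubisco activase, had 17433 to 37164. The root hair expansins EXPA7 and EXPA18 stayed at or below 79.8 and 105.5. PYK10, a beta-glucosidase known from roots and hypocotyls, was measured at 2346 to 8896. Same-group replicates stood apart in 6 of the 8 groups: the share of tested probe sets at least 2-fold apart between replicates 1 and 2 was 18.8% and 18.3% in npr1-3 DCA and mock, 20.4% and 19% in Col-0 INA and mock at 48 h, and 15.6% and 16.4% in Col-0 DCA and INA at 6 d. It was 0.901% in Col-0 DCA at 48 h and 1.41% in Col-0 mock at 6 d. Calls of the 5 genes, and those of the list genes between npr1-3 and Col-0 with DCA, are given below with and without single arrays.

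**Figure D1:**
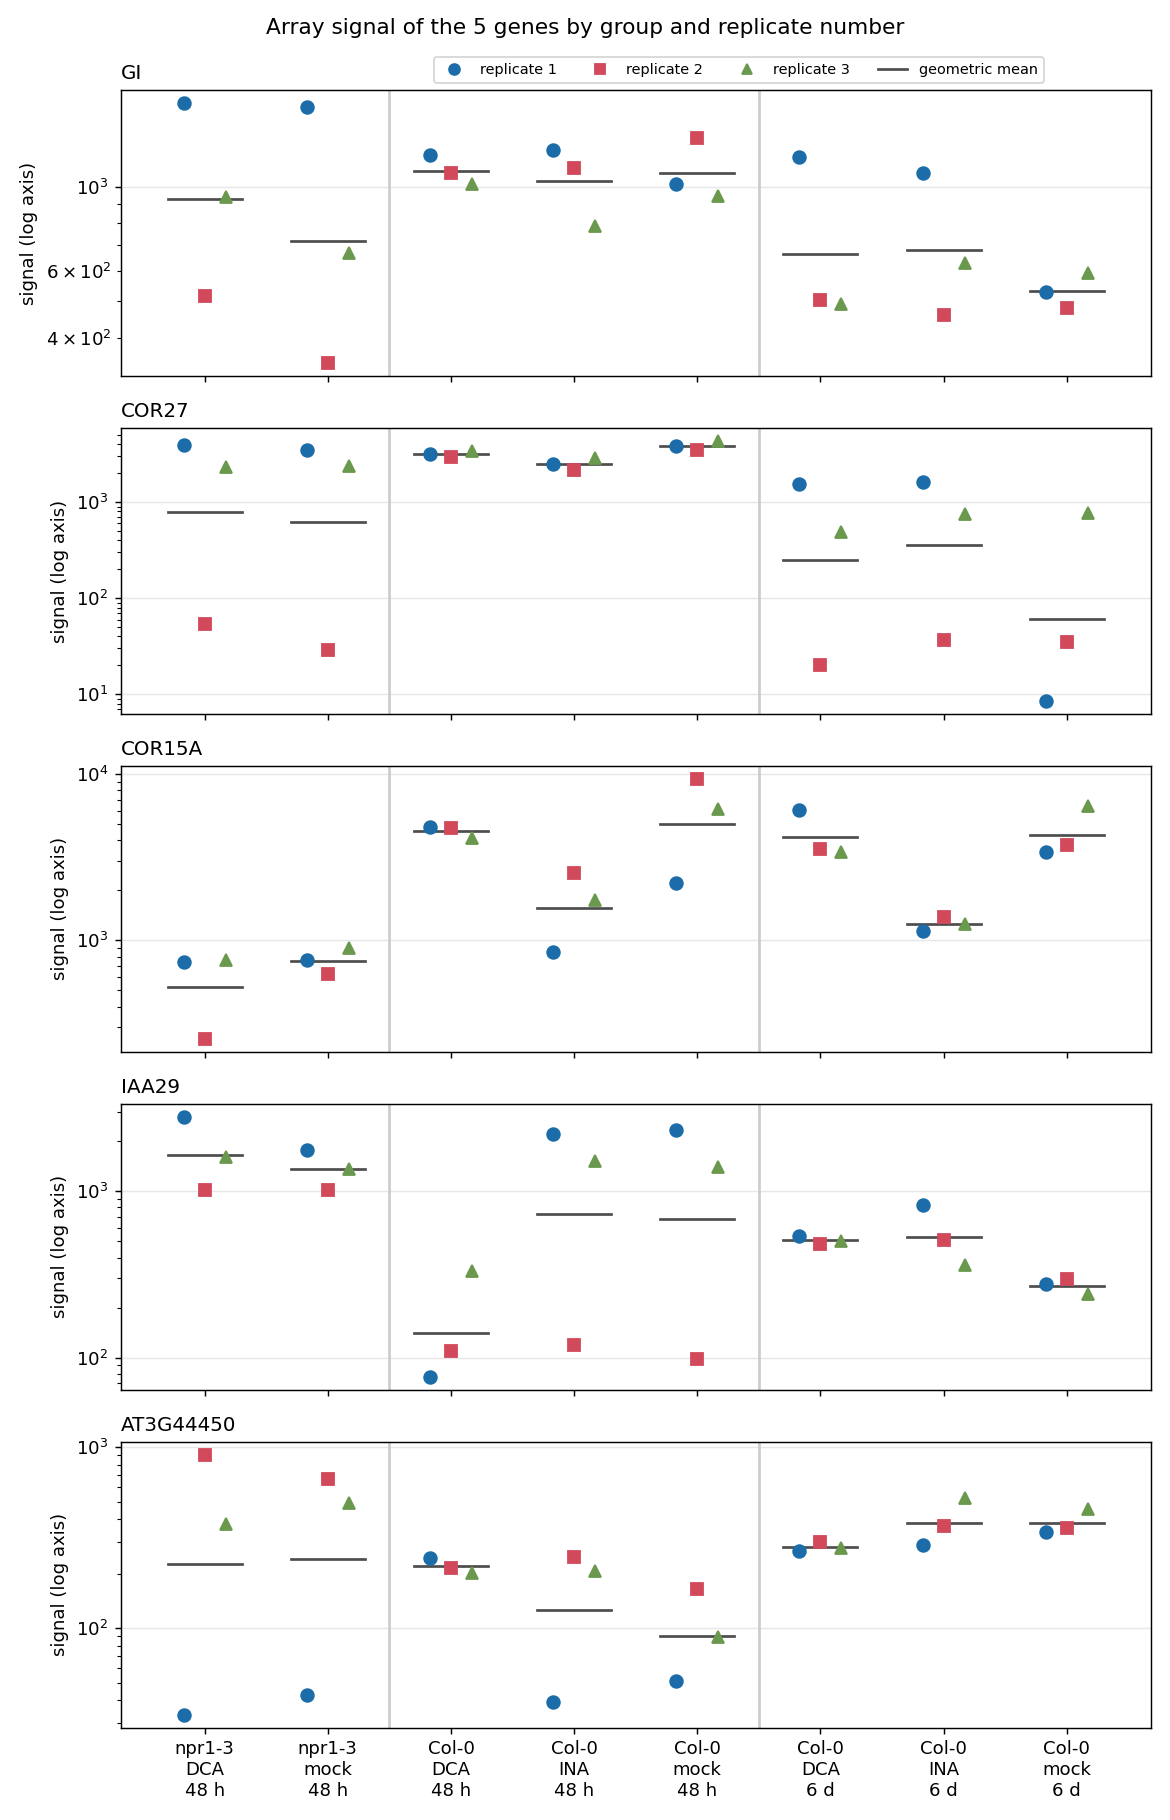
Signal of each gene (log axis) on all 24 arrays, in columns by group, with replicates 1, 2 and 3 as circles, squares and triangles and a bar at each group's geometric mean. COR15A was at 256.2 to 895.4 on the 6 npr1-3 arrays, and COR27 spanned 8.56 to 4307.1 over all arrays.

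The level of GI varied least of the 5 genes, 4.83-fold between its lowest and highest array, and its replicates were widely spread in npr1-3. In npr1-3, the signals of GI on replicates 1, 2 and 3 were 1658.0, 515.7 and 937.6 with DCA and 1616.4, 343.1 and 668.4 in mock, both at 48 h. In Col-0 at 48 h they were 1208.6, 1089.2 and 1013.4 with DCA, 1250.8, 1117.3 and 789.7 with INA, and 1016.5, 1342.1 and 946.9 in mock. The highest and the lowest GI signal of all arrays thus both came from npr1-3 at 48 h, from replicate 1 and replicate 2. At 6 d, Col-0 arrays of GI read 1196.0, 503.5 and 489.4 with DCA, 1088.9, 458.4 and 631.0 with INA, and 528.1, 478.1 and 593.1 in mock. Replicate 1 of DCA and of INA stood well above every other array at that time, while the mock arrays lay close together.

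Ordered by their geometric means, the GI levels placed the 3 Col-0 groups at 48 h first, at 1101, 1089 and 1033 for DCA, mock and INA, and mock at 6 d last, at 531.0. No neighbouring groups in that order differed by more than their pooled replicate SD.

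COR27 had the widest spread of the 5, 8.56 to 4307.1 over the 24 arrays. Signals below 74.2, the mean signal a probe set needed to be tested, are given as read, with no fold made from a single one of them. Its signals in npr1-3 at 48 h were 3923.9, 53.6 and 2321.5 on replicates 1, 2 and 3 with DCA, and 3522.5, 28.9 and 2382.4 in mock. In Col-0 at 48 h, COR27 read 3175.7, 2916.0 and 3363.8 with DCA, 2512.0, 2179.8 and 2848.4 with INA, and 3796.0, 3504.0 and 4307.1 in mock. Replicate 2 was low in both npr1-3 groups and in none of the Col-0 groups of the same time, whose arrays lay close together. At 6 d, COR27 signals in Col-0 were 1540.9, 20.0 and 492.7 with DCA, 1636.6, 36.9 and 754.1 with INA, and 8.56, 35.2 and 766.8 in mock. Replicate 2 was low in all 3 groups at 6 d, and in mock replicate 1 was low as well.

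The SD of COR27 around its group means was 2.65 on the log2 scale, the second highest of the 13648 tested probe sets, whose median was 0.35. Because the genes were chosen in part for differences between replicates, nothing is read from this rank or from those of IAA29 and AT3G44450 below. In mock at 48 h, replicate 2 was 28.9 in npr1-3 and 3504.0 in Col-0, while replicate 1 was 1.08-fold lower in npr1-3 and replicate 3 was 1.81-fold lower. In the order of geometric means, Col-0 mock, DCA and INA at 48 h came first at 3855, 3146 and 2498.5, and the steps between them exceeded the pooled SD. The other 5 groups followed without a step larger than their spread, down to 61.4 in Col-0 mock at 6 d.

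COR15A was low in npr1-3 with either treatment, and low in INA-treated Col-0 at both times. The npr1-3 signals of COR15A at 48 h were 741.2, 256.2 and 765.5 with DCA, and 766.0, 626.7 and 895.4 in mock. In Col-0 at 48 h they were 4802.9, 4733.8 and 4152.6 with DCA, 856.0, 2554.1 and 1750.8 with INA, and 2224.1, 9343.7 and 6183.9 in mock. Every npr1-3 array lay below every Col-0 array except replicate 1 of INA at 48 h, which lay between the npr1-3 values. In Col-0 at 6 d, COR15A read 6099.5, 3550.4 and 3410.0 with DCA, 1134.8, 1388.7 and 1262.9 with INA, and 3386.0, 3736.2 and 6422.5 in mock. At that time all INA arrays lay below all DCA and mock arrays, which overlapped each other.

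By geometric mean, Col-0 mock at 48 h, DCA at 48 h, mock at 6 d and DCA at 6 d followed each other at 5046, 4553.5, 4331 and 4195 with no step beyond the spread for COR15A. The step to Col-0 INA at 48 h, at 1564, was 1.42 on the log2 scale and exceeded the pooled SD of 0.66. The step from Col-0 INA at 6 d, at 1258, to npr1-3 mock, at 754.7, also exceeded it.

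By geometric mean, IAA29 was lowest in Col-0 DCA at 48 h and highest in npr1-3. The step from npr1-3 mock to Col-0 INA at 48 h, 0.88 on the log2 scale, lay within the pooled SD of 1.64. The step from Col-0 mock at 6 d to Col-0 DCA at 48 h, 0.94, exceeded its pooled SD of 0.79. The signals of IAA29 in npr1-3 at 48 h were 2798.4, 1013.8 and 1599.1 with DCA, and 1772.4, 1018.8 and 1370.4 in mock. Col-0 at 48 h gave 76.9, 109.5 and 332.4 for IAA29 with DCA, 2196.8, 119.0 and 1515.3 with INA, and 2323.7, 98.2 and 1409.6 in mock. The low Col-0 arrays were therefore all 3 of DCA together with replicate 2 of INA and of mock. In Col-0 at 6 d, IAA29 read 539.2, 482.9 and 503.3 with DCA, 830.5, 511.4 and 360.2 with INA, and 276.7, 296.3 and 239.8 in mock. At 6 d every mock array lay below every DCA and INA array. The SD of IAA29 around its group means was 1.302 on the log2 scale, which ranked 92 among all tested probe sets.

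AT3G44450 was low on replicate 1 of 4 of the 5 groups at 48 h. In npr1-3 it read 33.3, 905.1 and 377.3 with DCA, and 42.9, 662.4 and 493.9 in mock. In Col-0 at 48 h, AT3G44450 signals were 242.6, 214.7 and 201.3 with DCA, 39.3, 247.3 and 207.5 with INA, and 50.8, 163.5 and 89.6 in mock. Col-0 DCA was the group without a low replicate 1. At 6 d the locus read 265.6, 297.7 and 275.8 with DCA, 286.2, 365.6 and 525.4 with INA, and 338.8, 357.9 and 456.5 in mock, and no array of that time was as low. Its SD around the group means was 1.32, ranked 87 of all tested probe sets.

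**Figure D2:**
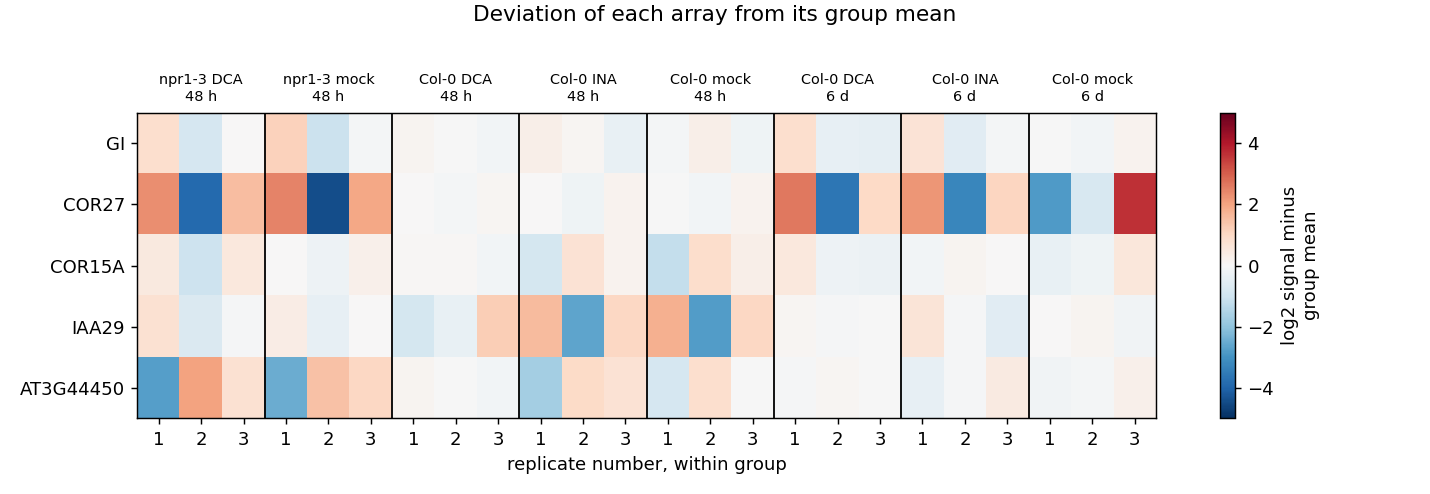
Deviation of each array from its group mean (log2 signal, colour scale), for the 5 genes down the page and the 24 arrays across it, by group and replicate number. COR27 and AT3G44450 run in opposite colours on replicates 1 and 2 of the npr1-3 groups, and the Col-0 DCA arrays at 48 h are pale for all genes but IAA29.

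Across groups, replicates 1 and 2 were at least 2-fold apart in 19 of 40 pairs of a gene and a group: 5 of 8 groups for COR27, 4 each for GI and AT3G44450, and 3 each for COR15A and IAA29. The genes were chosen in part for this pattern, so the count is set beside the shares of all probe sets above and nothing is read from it. The deviations of GI and COR27 from their group means correlated at a Pearson r of 0.74 over the 24 arrays, 0.83 over the 15 arrays at 48 h and 0.67 over the 9 at 6 d. AT3G44450 ran against GI, at -0.69 over the 24 arrays, and against IAA29, at -0.52. These correlations are descriptions over arrays that share groups and replicate numbers. They also hold the replicate pattern for which the genes were chosen in part, so nothing is read from their size.

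The next question was how DCA-treated npr1-3 differed from DCA-treated Col-0 at 48 h. COR15A fell by 3.11 ± 0.47 on the log2 scale (SE), 8.66-fold lower in npr1-3, and the arrays of the groups did not overlap (limma, adjusted p = 0.000539, 95% interval -4.09 to -2.14). IAA29 rose by 3.55 ± 0.95 on the log2 scale, 11.7-fold higher in npr1-3, again without overlap (limma, adjusted p = 0.0188, 95% interval 1.58 to 5.53). Calls were made at a Benjamini-Hochberg adjusted p under 0.05 over all tested probe sets. Thus 2 of 5 genes were called, beside 12.7% of all tested probe sets. Their arrays did not overlap in 2 of 5 genes, beside 40.2% of all.

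GI, COR27 and AT3G44450 were not called in that comparison, with log2 differences of -0.245, -1.999 and 0.04. The difference of COR27 rested on replicate 2 of npr1-3 and was -0.06 without that array. The npr1-3 arrays of DCA and of mock with the same number deviated together, with correlations of 0.67, 0.66 and 0.12 over all tested probe sets for replicates 1, 2 and 3, so the DCA and mock differences between genotypes do not stand apart from each other. COR15A kept its call in 8 of 9 fits that left out an array or a replicate number. It was not called without replicate 3, where its log2 difference was -3.45 (limma, adjusted p = 0.107). IAA29 kept its call in 3 of 9 such fits, with log2 differences of 2.739 to 4.198 and limma adjusted p values of 0.00699 to 0.222. AT3G44450 was called without replicate 1, at a log2 difference of 1.49 (limma, adjusted p = 0.0169), and its sign changed between fits.

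In bulk tissue, fewer cells that express a gene and less RNA per cell cannot be told apart. Beside these differences, LHCB4.2 was 0.66 higher on the log2 scale in DCA-treated npr1-3 than in DCA-treated Col-0 (limma, adjusted p = 0.0503) and PYK10 was 0.45 higher (limma, adjusted p = 0.392). All 3 tested leaf markers had positive differences, and their part in the results was not tested.

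The same comparison was read in lists of related genes, which were drawn up with earlier results of these data known. Of 31 cold-response genes listed, 5 had a probe set named for 1 gene alone in the supplied annotation, and these were tested. Other list genes may be measured by probe sets that it leaves unnamed or names for several genes. Among the 5, 3 fell in npr1-3, with a list median of -1.74 beside 0.06 over all tested probe sets. Lower calls made up 6.33% of all tested probe sets and higher calls 6.36%. COR15B, the close relative of COR15A, had 562.1, 542.5 and 352.6 in DCA-treated npr1-3 and 4843.3, 4811.2 and 3764.8 in DCA-treated Col-0. It fell by 3.22 ± 0.73 on the log2 scale without overlap between the arrays (limma, adjusted p = 0.00725). STZ, a zinc finger repressor of stress responses, fell by 2.11 (limma, adjusted p = 0.00173), and LTI30, a dehydrin, fell by 1.74 (limma, adjusted p = 0.0204). COR47, another dehydrin, and AT4G33980 were not called, at -0.54 and -1.63. In the 9 fits that left out an array or a replicate number, an alternative added after seeing the data, COR15B and STZ each kept the call in 8 and LTI30 in 3. Without replicate 3 the adjusted p of COR15B was 0.223 and that of STZ was 0.13 (limma).

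Of 48 auxin-response genes listed, 9 had a probe set named for 1 gene alone and 5 were tested. Of these, 2 rose in DCA-treated npr1-3, with a list median of 2.09. WES1, an enzyme that joins auxin to amino acids, read 6573.6, 1170.7 and 3968.6 in DCA-treated npr1-3 and 219.2, 260.3 and 393.1 in DCA-treated Col-0 and rose by 3.47 ± 1.002 on the log2 scale (limma, adjusted p = 0.0283). HAT2, an auxin-induced homeodomain factor, rose by 2.09 ± 0.60 on that scale (limma, adjusted p = 0.0265). Left-out arrays removed most of these calls: WES1 kept its call in 2 of 9 such fits, at log2 differences of 2.753 to 4.179 (limma, adjusted p = 0.00722 to 0.336), and HAT2 in 3 of 9, at 1.74 to 2.53 (limma, adjusted p = 0.00533 to 0.288). GH3.3, an enzyme of the same family as WES1, was not called at 2.24 (limma, adjusted p = 0.165).

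The clock list of 36 genes had 3 tested members. Of these, TIC, a clock regulator, rose by 1.15 (limma, adjusted p = 0.0379) and AT5G52660 rose by 0.63 (limma, adjusted p = 0.0122) in npr1-3, while XCT was not called at 0.28. Among 5 tested genes of darkness and sugar starvation, AKINBETA1, a subunit of the energy-sensing kinase SnRK1, rose by 1.81 (limma, adjusted p = 0.0344), and the list median was 1.81. TIC kept its call in 2 of 9 fits with arrays left out, AT5G52660 in 6 and AKINBETA1 in 3, and none of the 8 called list genes changed sign in them. Neither tested gene of the light and shade list, AT3G52740 and FHL, was called, at -0.63 and 0.39. In each other comparison of groups, limma called 0 of the 20 tested genes of these 5 lists. Of them, 0 to 6 had an unadjusted p under 0.05, beside 444 to 2090 of all tested probe sets.

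**Figure D3:**
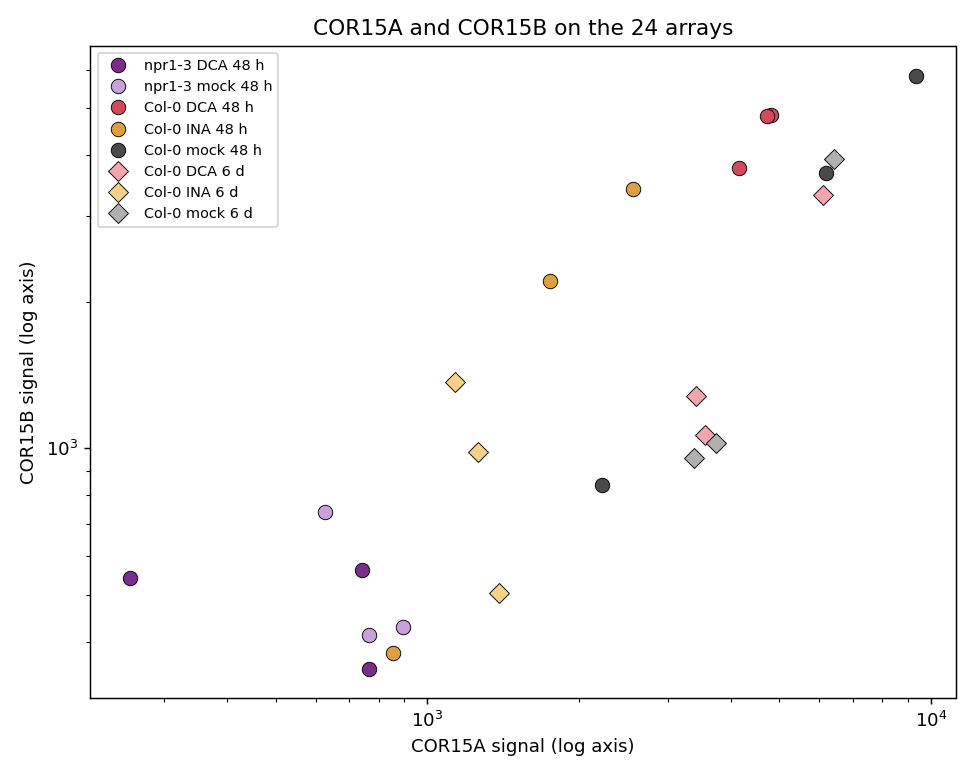
Signal of COR15A (horizontal, log axis) against that of COR15B (vertical, log axis) on the 24 arrays, coloured by group, with circles for 48 h and diamonds for 6 d. The 6 npr1-3 arrays lie at 256.2 to 895.4 for COR15A, and replicate 1 of Col-0 INA at 48 h lies among them.

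COR15A and COR15B are neighbours on the chromosome with 0 listed genes between them. Over the 24 arrays their log2 signals correlated at 0.83 and their deviations from group means at 0.70. Whether their probe sets share hybridisation was not tested. In Col-0 at 6 d, both genes were highest on replicate 1 of DCA and on replicate 3 of mock. COR15B read 3318.1 and 3933.6 there, and COR15A read 6099.5 and 6422.5. The pair differed in spread within those groups. The highest over the lowest array was 3.12-fold with DCA and 4.12-fold in mock for COR15B, and 1.79-fold and 1.9-fold for COR15A.

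In mock at 48 h, npr1-3 and Col-0 differed in the same direction for COR15A, and its arrays did not overlap. This contrast chose the genes and is given without a test. The log2 differences, npr1-3 minus Col-0, were -0.60 for GI, -2.63 for COR27, -2.74 for COR15A, 0.98 for IAA29 and 1.41 for AT3G44450. In linear terms COR15A was 6.69-fold lower in npr1-3. COR15A, COR27 and AT3G44450, 3 of 5, differed at least 2-fold, beside 4.41% of all tested probe sets, and 1 of 5 had arrays without overlap, beside 11% of all. Without replicate 1, all 5 differed at least 2-fold, beside 11.1% of all. GI ran from -1.235 to 0.083 and IAA29 from -0.42 to 1.862 over the fits with arrays left out. Without replicate 2 of npr1-3, the difference of COR27 was -0.41.

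The genotype difference in mock varied with the replicate number. COR15A was lower in npr1-3 in every same-numbered pair, by 2.90-fold, 14.9-fold and 6.91-fold for replicates 1, 2 and 3. IAA29 was 10.4-fold higher on replicate 2 of npr1-3, where the Col-0 array was low, and 1.31-fold and 1.03-fold lower on replicates 1 and 3. AT3G44450 was 4.05-fold and 5.51-fold higher on replicates 2 and 3 of npr1-3, and its replicate 1 was low in both, at 42.9 in npr1-3 and 50.8 in Col-0. GI was 1.59-fold higher on replicate 1 of npr1-3 and 3.91-fold lower on replicate 2.

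DCA left the 5 genes uncalled in npr1-3 at 48 h. The log2 differences, DCA minus mock, were 0.37 for GI, 0.34 for COR27, -0.52 for COR15A, 0.29 for IAA29 and -0.10 for AT3G44450. In every gene the arrays of the groups overlapped, while 10.9% of all tested probe sets had arrays without overlap. None of the 5 had an unadjusted p under 0.05 (limma, 0 of 5), beside 1075 of all 13648, and 0.322% of all tested probe sets were called. COR15A was lower with DCA in all same-numbered pairs of npr1-3, by 1.03-fold, 2.45-fold and 1.17-fold. The numbers paired these samples, since same-numbered arrays deviated together, and the fit with the replicate number as a block called none of the 5 either.

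In Col-0 at 48 h, limma called 0 of 5 genes between DCA and mock, and 1 of 5 had an unadjusted p under 0.05, beside 2.41% of all tested probe sets called. That gene was IAA29, whose DCA signals of 76.9, 109.5 and 332.4 overlapped those of mock through mock replicate 2, at 98.2. Its log2 difference was -2.28 ± 0.95 (limma, adjusted p = 0.251). Without mock replicate 2 it was called at -3.68 (limma, adjusted p = 0.0141), and without all arrays of replicate 2 at -3.50 (limma, adjusted p = 0.016). Without mock replicate 1 it was -1.40 (limma, adjusted p = 0.854), and without all arrays of replicate 1 it was -0.96 (limma, adjusted p = 0.816).

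Arrays of DCA and mock did not overlap in 2 of 5 genes at 48 h, beside 28.1% of all tested probe sets. AT3G44450 was higher on all DCA arrays by 1.27 ± 0.96 (limma, adjusted p = 0.555), and COR27 was lower by 0.29 ± 1.92 (limma, adjusted p = 0.963). The SE of COR27 rests on an SD of 2.651 pooled over all 8 groups, against 0.104 for DCA and 0.15 for mock at 48 h. COR15A and GI differed by -0.15 and 0.02 on the log2 scale. The difference between the DCA effects of npr1-3 and Col-0 holds the mock contrast and is given without a test: 2.57 for IAA29, -1.37 for AT3G44450, 0.63 for COR27, -0.37 for COR15A and 0.36 for GI. Of these, 2 of 5 were at least 2-fold, beside 5.68% of all, and without replicate 1 the value of IAA29 was 1.07. Signs of the other 4 genes changed over the fits with arrays left out.

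**Figure D4:**
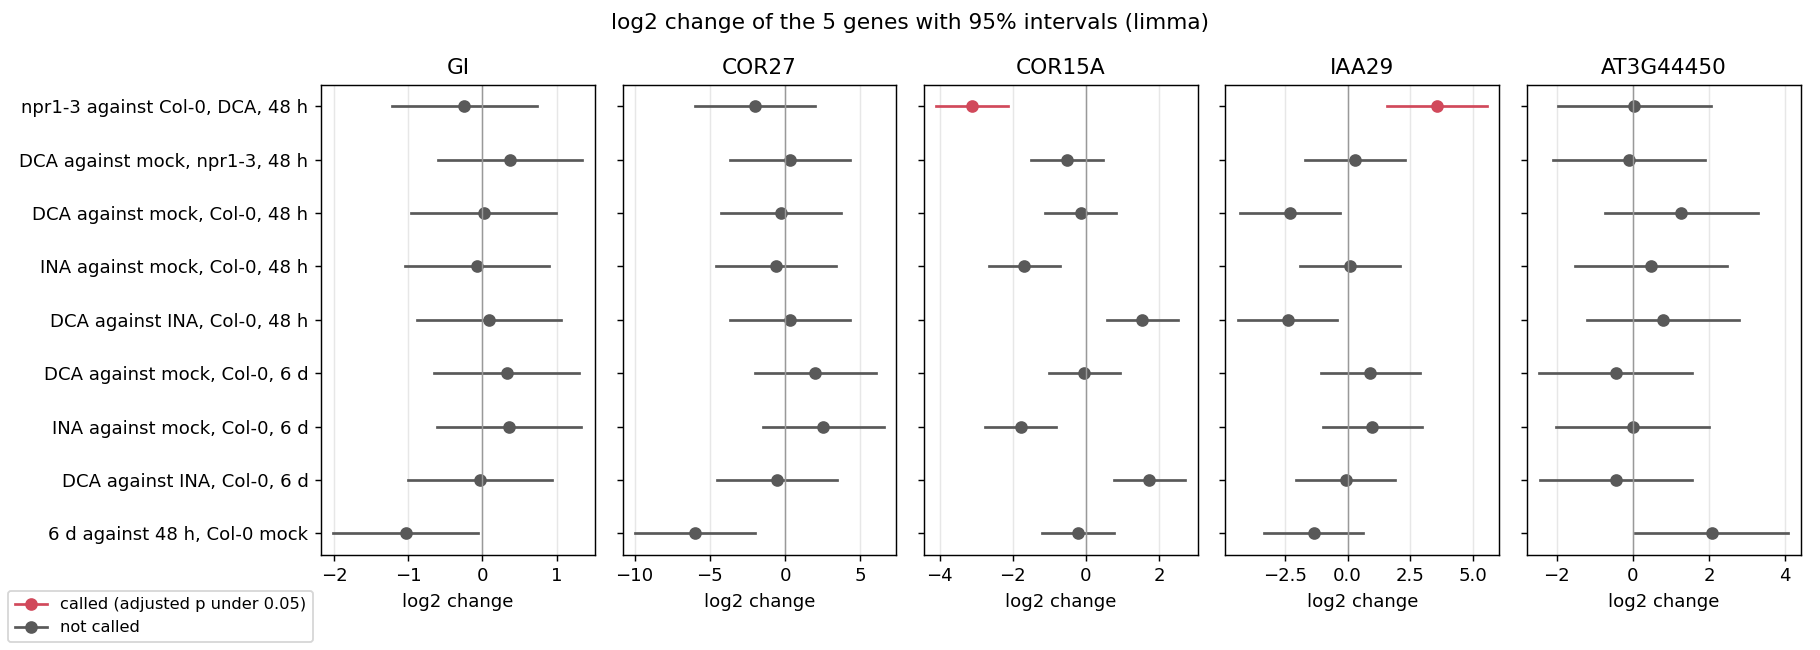
Difference of the log2 signal with its 95% interval (limma) for the 5 genes in 9 comparisons, first group minus second, red where called at an adjusted p under 0.05. COR15A and IAA29 were called between npr1-3 and Col-0 with DCA, and no other interval is red.

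COR15A had the largest difference of the 5 genes in size between INA and mock in Col-0 at 48 h, where limma called 0 of 5 and 1 of 5 had an unadjusted p under 0.05. INA-treated plants had 856.0, 2554.1 and 1750.8 and mock plants had 2224.1, 9343.7 and 6183.9, a difference of -1.69 ± 0.47 on the log2 scale (limma, adjusted p = 0.0602). These mock arrays were also part of the choice of the genes. The groups overlapped through mock replicate 1, yet each INA array was below the mock array of its number, by 2.60-fold, 3.66-fold and 3.53-fold. With the replicate number as a block, COR15A was called (limma, adjusted p = 0.0495), but not with the block within each harvest (limma, adjusted p = 0.0509). It was called in 3 of 9 fits that left out an array or a number, with log2 differences of -2.28 to -1.25 over the 9 and limma adjusted p values of 0.00471 to 0.893. Over the whole table, 2.65% of probe sets were called.

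The other 4 genes had adjusted p values of 0.949 or above between INA and mock at 48 h in limma. COR27 was lower on every INA array, without overlap, by 0.63 on the log2 scale, so that 1 of 5 genes did not overlap beside 16.3% of all tested probe sets. Its same-numbered pairs were 1.51-fold, 1.61-fold and 1.51-fold lower with INA. The p-value of COR27 rests on an SD of 2.651 pooled over all 8 groups, against 0.193 for INA and 0.15 for mock at 48 h. GI, IAA29 and AT3G44450 differed by -0.08, 0.10 and 0.48.

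At 6 d in Col-0, limma again called 0 of 5 genes between INA and mock, 1 of 5 had an unadjusted p under 0.05, and 1.83% of all tested probe sets were called. COR15A had 1134.8, 1388.7 and 1262.9 with INA and 3386.0, 3736.2 and 6422.5 in mock, 3.44-fold lower with INA and without overlap. Its log2 difference was -1.78 ± 0.47 (limma, adjusted p = 0.0543, 95% interval -2.76 to -0.81). It was called with quantile normalisation (limma, adjusted p = 0.046), a floor of 32 (0.0498), an added 16 (0.049), a fit to those groups alone (0.0225) and without replicate 1 (0.0281). It was not called without the filter on low signals (limma, adjusted p = 0.0719), without the intensity trend (0.0598) or in the other 8 of 9 fits that left out arrays, whose adjusted p reached 0.695 at log2 differences of -1.96 to -1.50 over the 9. COR15B, in contrast to COR15A, had overlapping arrays, with a log2 difference of -0.83 (limma, adjusted p = 0.621).

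IAA29 was higher on all INA arrays than on all mock arrays at 6 d, by 0.99 on the log2 scale (limma, adjusted p = 0.657), so 2 of 5 genes did not overlap, beside 26% of all. COR27, GI and AT3G44450 overlapped, at 2.54, 0.36 and -0.003. The change of the INA effect between 48 h and 6 d was -0.09 for COR15A, and limma called no probe set for that change: 0 of 5 genes and 346 of all tested probe sets had an unadjusted p under 0.05.

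DCA and mock at 6 d gave limma no call among all tested probe sets, of which 444 had an unadjusted p under 0.05, 0 of the 5 genes among them. IAA29 was higher on every DCA array, 539.2, 482.9 and 503.3 against 276.7, 296.3 and 239.8 in mock, by 0.91 on the log2 scale (limma, adjusted p = 0.93). AT3G44450 was lower on every DCA array by 0.45 (limma, adjusted p = 0.958). These 2 of 5 genes did not overlap, beside 15.3% of all. COR15A differed by -0.05, COR27 by 2.01 and GI by 0.33.

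The effect of DCA on IAA29 was 3.19 ± 1.34 higher at 6 d than at 48 h on the log2 scale, which was not called (limma, adjusted p = 0.373). For that change limma called 0 of 5 genes, with 1 of 5 at an unadjusted p under 0.05, and 0.022% of all tested probe sets.

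Both compounds carry a pair of chlorine atoms and a carboxyl group, on a benzene ring with an amino group in DCA and on a pyridine ring in INA. They were compared at the same dose at both times, 2 comparisons, with p-values adjusted over all probe sets within each. COR15A was higher with DCA than with INA at 48 h, 4802.9, 4733.8 and 4152.6 against 856.0, 2554.1 and 1750.8, without overlap. The log2 difference was 1.54 with a 95% interval of 0.57 to 2.52 (limma, adjusted p = 0.368). At 6 d it was 1.74 with an interval of 0.76 to 2.71 (limma, adjusted p = 0.174), and COR15A arrays again did not overlap. Same-numbered arrays paired the samples at 6 d, where DCA was 5.37-fold, 2.56-fold and 2.70-fold above INA for replicates 1, 2 and 3.

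The other genes gave no call between DCA and INA. IAA29 was lower with DCA at 48 h, at -2.38 with a 95% interval of -4.36 to -0.41 (limma, adjusted p = 0.383), and was called without replicate 2 at -3.51 (limma, adjusted p = 0.0456). Without replicate 1 it was -1.16 (limma, adjusted p = 0.907), and over the fits with arrays left out it ran from -3.69 to -1.16. COR27 had an interval of -3.66 to 4.33, AT3G44450 of -1.21 to 2.79 and GI of -0.88 to 1.07 at 48 h. These intervals rest on a spread pooled over all 8 groups, under which differences within them remain possible. For COR27 that SD was 2.651 on the log2 scale, against 0.104 for DCA and 0.193 for INA at 48 h. Its interval thus reflects the spread of other groups more than that of these arrays. At 6 d the differences were -0.53 for COR27, -0.45 for AT3G44450, -0.07 for IAA29 and -0.03 for GI. At 48 h limma called 0 of 5 genes and 0 of all tested probe sets, with 2 of 5 and 1623 of all at an unadjusted p under 0.05. At 6 d limma called 0 of 5 genes and 0.212% of all, with 1 of 5 and 799 of all at an unadjusted p under 0.05. Groups did not overlap in 2 of 5 genes at 48 h, beside 23.2% of all, and in 1 of 5 at 6 d, beside 10.1% of all.

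Last, the mock groups of Col-0 were compared between harvests. COR27 read 8.56, 35.2 and 766.8 at 6 d and 3796.0, 3504.0 and 4307.1 at 48 h, lower at 6 d and without overlap (-5.97 ± 1.92 on the log2 scale, limma, adjusted p = 0.16). The 2 lowest of these signals lie below 74.2, and the log2 difference ran from -7.79 to -4.55 over the fits with arrays left out (limma, adjusted p = 0.116 to 0.86). GI was 2.05-fold lower at 6 d, also without overlap (limma, adjusted p = 0.3), and AT3G44450 was 2.07 higher on the log2 scale without overlap (limma, adjusted p = 0.31). IAA29 and COR15A overlapped, at -1.34 and -0.22.

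Between harvests limma called 0 of 5 genes, 3 of 5 had an unadjusted p under 0.05, and 0.212% of all tested probe sets were called. The 3 genes without overlap stood beside 28% of all. GI and AT3G44450 were called in a fit to these groups alone (limma, adjusted p = 0.0371 and 0.0398), and AT3G44450 without replicate 1 (limma, adjusted p = 0.0254). AT4G33980, a locus of the cold list, was lower on every array of 6 d than on those of 48 h but was not called (limma, adjusted p = 0.317). Plants of the harvests also differed in age, and no source used here states the hour of either, so time after spraying, age and hour cannot be told apart.

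The genes whose log2 signals followed each of the 5 most closely were sought among 7333 other tested probe sets with a single annotated gene, by Pearson's r over the 24 arrays. IAA29 was followed by AT4G27450 at 0.97, HAT2 at 0.97 and AT1G21050 at 0.96. HAT2 read 2454.0, 887.8 and 2044.9 in DCA-treated npr1-3 and 356.1, 301.0 and 540.0 in DCA-treated Col-0. Its Col-0 mock signals at 48 h were 2167.4, 363.9 and 1846.2, with the same low replicate 2 as IAA29.

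COR27 was followed by AT5G39410 at 0.95, AT4G33980 at 0.93 and AT4G16146 at 0.92. AT4G33980 read 2206.8, 9.70 and 868.6 in DCA-treated npr1-3, 866.1, 790.1 and 803.7 in DCA-treated Col-0 at 48 h, and 843.6, 8.13 and 70.2 with DCA at 6 d. Its lowest replicate 2 signals came from the npr1-3 groups and from the groups at 6 d, as for COR27. For GI the closest were PDC2, a pyruvate decarboxylase, at 0.93, AT3G58570 at 0.91 and AT5G18525 at 0.88.

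AT3G44450 was followed by AT1G54820 at 0.95, GT72B1, a glucosyltransferase, at 0.93 and AT4G27700 at 0.90. By deviations from group means alone, AT5G51110 at 0.96 and AT3G52740 at 0.96 were closest to AT3G44450. AT3G52740 read 2.95, 207.9 and 115.4 in DCA-treated npr1-3 and 69.9, 54.0 and 70.0 in DCA-treated Col-0. COR15A had looser followers, RALFL22, an RALF-like peptide, and EXLA1, an expansin-like protein, both at 0.89, and AT3G07470 at 0.88. By deviations, its closest was AT3G51450 at 0.84.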

How the data were processed

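The authors deposited a linear signal intensity for each probe set. The submitters' processing notes name GCOS, the Affymetrix scanner software, without a version. Leaving out 2% of values at either end, the mean was 500.05 to 500.07 on all 24 arrays, so no array was scaled again, and 0 columns remained without a sample. A floor of 1 was set on the signals before log2. Of 22746 probe sets other than the 64 controls, 13648 with a mean log2 at or above the 40th percentile (a signal of 74.2) were tested.

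With limma 3.58.1 (R 4.3.3), 1 mean per group was estimated from the 24 arrays together, and eBayes was run with an intensity trend. The spread of each probe set was pooled over the 8 groups. Tests were two-sided, with Benjamini-Hochberg adjustment over all tested probe sets in each comparison and calls at an adjusted p under 0.05. Errors of log2 differences are standard errors, intervals are 95%, and the median interval reached 0.59 to either side. Precision is limited by there being 3 arrays a group. The steps were tested on simulated data, and plots were made in Python 3.11.15 with matplotlib 3.10.9.

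Probe sets took their names from the platform annotation supplied: 13513 carried the name of 1 gene, 503 those of several and 8730 none, and 13436 matched a RefSeq record, used for symbols. No source used here names its build, and coordinates are left out. The 5 genes and the lists were chosen with earlier results of these data known. Lists held 218 genes, of which 37 had a probe set named for 1 gene alone and 30 were tested. The others may be measured by probe sets with no name or several. Named in the text are all 5 genes, up to 3 genes of a list in a comparison (those called, else those of highest mean signal), and the 3 genes closest to each by correlation. XCT, COR47, GH3.3 and AT4G33980 between npr1-3 and Col-0, and AT4G33980 between harvests, are named beyond that rule, after their values were seen.

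Groups share replicate numbers in the labels, which do not say what a number marks. Deviations from group means correlated between same-numbered arrays at 0.76, 0.78 and 0.29 for INA and mock in Col-0 at 48 h, at 0.75, 0.57 and 0.46 for DCA and INA at 6 d, at 0.67, 0.66 and 0.12 for DCA and mock in npr1-3, and at 0.36, 0.32 and 0.10 for npr1-3 and Col-0 in mock. For these comparisons same-numbered arrays were also set side by side, but the fits as reported were unpaired. The replicate number entered only as a block in an alternative. In the other comparisons at least 1 number correlated at 0.09 or below. Alternatives changed the normalisation, the filter, the floor, the log scale, the arrays fitted, the block, the variance trend and the arrays left out.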

Additional observations from a re-analysis of the deposited data

Results flagged for a closer look

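AT3G44450 differed between DCA and mock in Col-0 in opposite directions at the 2 harvests, without overlap between the arrays of DCA and mock at either. At 6 d its log2 difference, DCA minus mock, was -0.45, with 265.6, 297.7 and 275.8 on the DCA arrays and 338.8, 357.9 and 456.5 on the mock arrays. At 48 h it was 1.27, with 242.6, 214.7 and 201.3 on the DCA arrays and 50.8, 163.5 and 89.6 on the mock arrays. Neither difference was called. The change from the 48 h effect, 6 d minus 48 h, was tested as an interaction and was not called, at -1.72 on the log2 scale (limma, adjusted p = 0.574).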

How the results depend on the processing

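Counts stayed the same or nearly so in 93 of 102 values from the alternatives that left out no array of the compared groups. Most were counts of the 5 genes called. The others were counts of genes at least 2-fold apart where no test was made, and of gene and group pairs with replicates 1 and 2 at least 2-fold apart. With the replicate number as a block, 1 gene in place of 0 was called between INA and mock at 48 h (COR15A, adjusted p = 0.0495, but 0.0509 and not called with the block within a harvest), between INA and mock at 6 d (COR15A, 0.0325, and 0.0333 with the block within a harvest) and between mock at 6 d and at 48 h (COR27, 0.0228). The last 2 comparisons share only a number, and the block changed no other call of the 5 genes. Between INA and mock at 6 d, 1 gene was also called with quantile normalisation, a floor of 32, an added 16 and a fit to those arrays alone, and 0 without the filter or without the intensity trend. Between mock at 6 d and at 48 h, a fit to those arrays alone called 2 genes. The block within a harvest could not be fitted between harvests.

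Leaving out single arrays or whole replicate numbers gave 0 to 1 called genes between DCA and mock, INA and mock, and DCA and INA at 48 h, between INA and mock at 6 d and between harvests, and 0 to 2 between npr1-3 and Col-0 with DCA. Between npr1-3 and Col-0 in mock, 2 to 5 genes differed at least 2-fold, and 1 to 3 did so for the change of the DCA effect with genotype.

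Signs changed in 74 of 555 such fits of tested results, in 27 results, and no fit with a changed sign had an adjusted p under 0.533. The log2 ranges of these results were as follows. At 48 h between DCA and mock, GI ran from -0.10 to 0.17 and COR15A from -0.78 to 0.30. Between INA and mock at 48 h, GI ran from -0.26 to 0.12, IAA29 from -1.30 to 1.41 and AT3G44450 from -0.005 to 1.32. For DCA and INA at 48 h, GI ran from -0.10 to 0.23 and AT3G44450 from -0.12 to 1.29. At 6 d between DCA and mock, GI ran from -0.10 to 0.63, COR27 from -0.73 to 3.83 and COR15A from -0.49 to 0.39. Between INA and mock at 6 d, AT3G44450 ran from -0.24 to 0.20. For DCA and INA at 6 d, GI ran from -0.46 to 0.31, COR27 from -2.17 to 1.29 and IAA29 from -0.36 to 0.24. Between harvests, COR15A ran from -0.81 to 0.33. In npr1-3 between DCA and mock, GI ran from -0.16 to 0.96, COR27 from -1.88 to 2.27, IAA29 from -0.087 to 0.65 and AT3G44450 from -1.35 to 1.28. Between npr1-3 and Col-0 with DCA, GI ran from -0.66 to 0.18 and AT3G44450 from -0.98 to 1.49. For the change of the DCA effect with time, GI ran from -0.11 to 0.65, COR27 from -0.42 to 4.13 and COR15A from -0.34 to 0.69. For that of INA, COR15A ran from -0.54 to 0.50, IAA29 from -0.43 to 2.29 and AT3G44450 from -1.33 to 0.002. Of the values without a test, 6 results changed sign in 12 of 120 fits. Between npr1-3 and Col-0 in mock, GI ran from -1.235 to 0.083 and IAA29 from -0.42 to 1.862. For the change of the DCA effect with genotype, GI ran from -0.177 to 0.941, COR27 from -1.587 to 2.568, COR15A from -0.817 to 0.218 and AT3G44450 from -2.618 to 0.004. The cause was not tested.

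Counts over all tested probe sets moved more widely than those of the genes. Over all alternatives they ran from 3 to 3264 between npr1-3 and Col-0 with DCA (1732 as reported, the lowest without replicate 3), from 0 to 1852 between npr1-3 and Col-0 in mock (11, the highest without replicate 1), from 0 to 945 between DCA and mock at 48 h (329), from 0 to 606 between INA and mock at 48 h (362), from 0 to 854 between INA and mock at 6 d (250), from 0 to 741 between harvests (29), from 0 to 130 between DCA and INA at 6 d (29), from 0 to 165 between DCA and mock in npr1-3 (44), from 0 to 66 for the change of the DCA effect with time (3) and from 0 to 43 between DCA and INA at 48 h (0). With 3 arrays a group and a spread pooled over the groups, an interval for COR27 reached about 4 on the log2 scale to either side. Even its difference of -5.97 between harvests was not called in the fit as reported, so differences of that gene could be missed.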
